A study of Monascus purpureus with 9 samples.

Results

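Among the 8918 rows of the expression table named gene_ with a number (9869 rows in all), 132 separated a Swd3 knockout from a Set1 knockout of the pigment-forming mould Monascus purpureus. The members were chosen by measured FPKM values of all 3 groups, under 4 conditions. The mean FPKM of both knockouts, each with 1 added, differed by about 1.5-fold or more (0.59 on the log2 scale). The highest of the 3 group means was at least 5 FPKM. The WT mean was at least 0.1 and under 1000 FPKM. The 3 Swd3 knockout values did not overlap the 3 Set1 knockout values. FPKM divides the fragments of a row by its length and by the library's total, so that levels of different rows can be set side by side.

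The 9 RNA-seq libraries comprised 3 of the Swd3 knockout, 3 of the Set1 knockout and 3 of the wild type (WT), all from total RNA of mycelium collected after 2 days in PDB medium. The labels give each genotype without the parent strain's name, the means of deletion or the number of transformants, and name no separate cultures. A lost subunit therefore cannot be told apart from the history of the strain that lost it, and p-values measure the spread between libraries, which may be technical. Summed FPKM was 708044 to 712844 in Swd3 knockout libraries, 722396 to 729434 in Set1 knockout libraries and 705678 to 715570 in WT libraries, and sequencing depth is unknown.

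Set1 and Swd3 are subunits of COMPASS, a protein complex that methylates lysine 4 of histone H3 at the starts of transcribed genes. Set1 carries the catalytic SET domain. Swd3 is a WD40-repeat protein of the complex's core, known from yeast to be needed for the complex to hold together and act. In filamentous fungi the complex is studied for its part in secondary metabolism, including pigment formation. Setting one knockout against the other asks where the loss of a catalytic and of a structural subunit leaves different transcript levels.

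Rows carry numbers in place of gene names, products or coordinates, and 0 of them matched the reference gene list, so the level of either deleted gene was not checked here. Of 60 symbols in 4 lists (COMPASS subunits, the pigment cluster, the citrinin cluster and global regulators of secondary metabolism), 0 matched a row. Each member is therefore known by its row name, its levels and its number, and no function or sequence is given for it.

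The 132 rows fell into 51 that were higher and 81 that were lower in the Swd3 than in the Set1 knockout. The direct difference chose them, so its sizes are a description. Most were modest, since 88 of the 132 differed by under 0.75 on the log2 scale and 12 by at least 1 (8 higher and 4 lower in the Swd3 knockout). A linear model over all 9153 tested rows (limma on log2(FPKM + 1), Benjamini-Hochberg adjusted p under 0.05, meant below wherever a row is called) called 131 of the 132, where 12.8% of all tested rows were called, 6.66% higher and 6.15% lower. Conversely, the 131 made up 11.2% of the 1173 rows called. The balance of the members followed the scaling of the libraries: with every library set to a common total the rule found 63 higher and 65 lower, by the median of ratios 48 higher and 88 lower, and after quantile normalization 61 higher and 50 lower. Over all tested rows the calls were 610 higher and 563 lower, 782 higher and 437 lower at a common total, 625 higher and 690 lower by the median of ratios, and 748 higher and 771 lower after quantile normalization.

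At the edge of the rule, gene_5079 and gene_8304 were the rows just inside. Gene_5079 averaged 162 ± 10.7 FPKM in the Swd3 knockout, 108 ± 0.999 in the Set1 knockout and 90.6 ± 0.339 in WT (SD, n = 3 each). Gene_8304 averaged 617 ± 22.8, 927 ± 25.4 and 646 ± 6.38 FPKM in the same groups. Just outside were gene_7121, at 73.2 ± 0.749, 48.5 ± 3.27 and 6.78 ± 0.338 FPKM, and gene_3430, at 812 ± 16, 1216 ± 27.3 and 731 ± 41.0 FPKM. With the size of the difference left out of the rule, 2281 gene_ rows met its remaining conditions, a count that includes the members. Another 7 rows, which were not members, met every condition except the separation of the libraries.

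The members on each side stood at different levels in WT. The rule used the WT mean through its bounds and as one of the 3 means whose highest had to reach 5 FPKM. Those higher in the Swd3 knockout had a median WT mean of 16.3 FPKM (range 0.978 to 530), near the median of 18.7 FPKM over the 8580 gene_ rows tested. Those lower in the Swd3 knockout had a median WT mean of 379 FPKM (range 0.956 to 929). Of the 81 lower members, 58 lay at 100 to 1000 FPKM in WT, 5.6% of the 1035 gene_ rows at that level. At 20 to 100 FPKM the lower members made up 0.266% of the rows, at 5 to 20 FPKM 0.420% and at 0.1 to 5 FPKM 0.212%. The higher members were spread more evenly over the same classes, with 8, 14, 13 and 16 members from the most to the least abundant class (0.773%, 0.466%, 0.496% and 0.847% of the rows). Among tested gene_ rows that were not members, 129 of 969 were called higher and 176 lower in the direct comparison at 100 to 1000 FPKM, whereas 39 of 1697 were called higher and 19 lower at 0.1 to 5 FPKM.

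**Figure D1:**
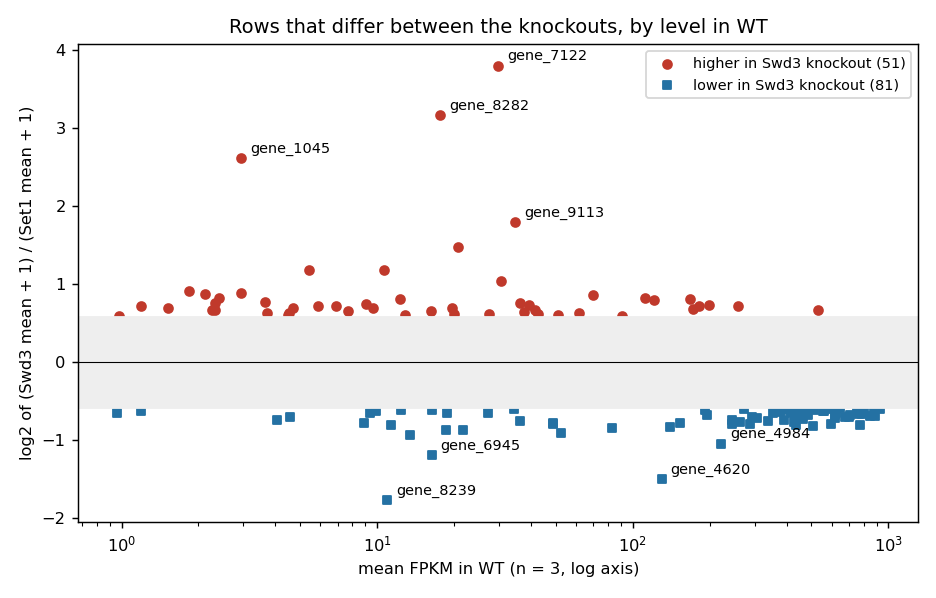
Each point is one of the 132 rows, placed by its mean FPKM in WT (n = 3, log axis) and by the log2 ratio of the Swd3 to the Set1 knockout mean, each with 1 added. The grey band marks differences under about 1.5-fold, which the rule left out. The 81 lower members crowd at the right, with a median WT mean of 379 FPKM, while the 51 higher members spread over all levels.

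The row with the largest difference was gene_7122. It stood at 3936, 4127 and 4079 FPKM in the Swd3 knockout libraries, at 284, 302 and 285 FPKM in the Set1 knockout libraries and at 28.5, 30.1 and 30.6 FPKM in the WT libraries. Neither knockout came near WT, and the Swd3 knockout was 13.9-fold above the Set1 knockout, which was itself 9.78-fold above WT. This one row took 0.555% to 0.579% of the summed FPKM in Swd3 knockout libraries, 0.0391% to 0.0414% in Set1 knockout libraries and 0.00404% to 0.00434% in WT libraries.

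For gene_8282 each Set1 knockout library lists 0. The row had 9.94, 7.2 and 6.75 FPKM in the Swd3 knockout, and 17.9, 15.2 and 19.8 FPKM in WT. All Swd3 knockout values lay below all WT values, with a mean 2.22-fold lower than in WT (limma adjusted p = 8.86e-06). Since a value of exactly 0 may reflect an estimate that failed, no fold against the Set1 knockout is given. Because rows carry no gene names, whether gene_8282 is the deleted Set1 gene itself was not tested.

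Gene_1045 had 95.3, 89.6 and 86.3 FPKM in the Swd3 knockout, 13.3, 14.0 and 14.5 FPKM in the Set1 knockout and 2.70, 2.46 and 3.67 FPKM in WT. As for gene_7122, the 3 groups formed 3 separate steps, with the Swd3 knockout 6.48-fold above the Set1 knockout. Gene_9113 differed in form, because WT lay between the knockouts. It had 73.3, 79.4 and 78.6 FPKM in the Swd3 knockout, 23.5, 20.7 and 20.4 FPKM in the Set1 knockout and 38.3, 32.6 and 33.1 FPKM in WT.

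On the other side, gene_8239 had the largest deficit in the Swd3 knockout. Its values were 2.76, 2.31 and 2.92 FPKM there, 12.6, 10.7 and 11.1 FPKM in the Set1 knockout and 11.8, 10.2 and 10.9 FPKM in WT. The Set1 knockout and WT values overlapped, and the Swd3 knockout mean was 4.31-fold below that of the Set1 knockout. Gene_4620 had its highest values in WT, with 5.77, 6.05 and 7.06 FPKM in the Swd3 knockout, 20.9, 18.9 and 19.1 FPKM in the Set1 knockout and 130, 128 and 131 FPKM in WT. Its mean was 20.6-fold below WT in the Swd3 knockout and 6.60-fold below WT in the Set1 knockout.

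Gene_6945 was higher in both knockouts than in WT, and more so without Set1. It had 187, 170 and 175 FPKM in the Swd3 knockout, 404, 397 and 416 FPKM in the Set1 knockout and 15.7, 16.1 and 17.3 FPKM in WT. Gene_4984 was lower in both, with 50.6, 45.7 and 45.5 FPKM in the Swd3 knockout, 102, 97.7 and 95.7 FPKM in the Set1 knockout and 226, 204 and 234 FPKM in WT.

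**Figure D2:**
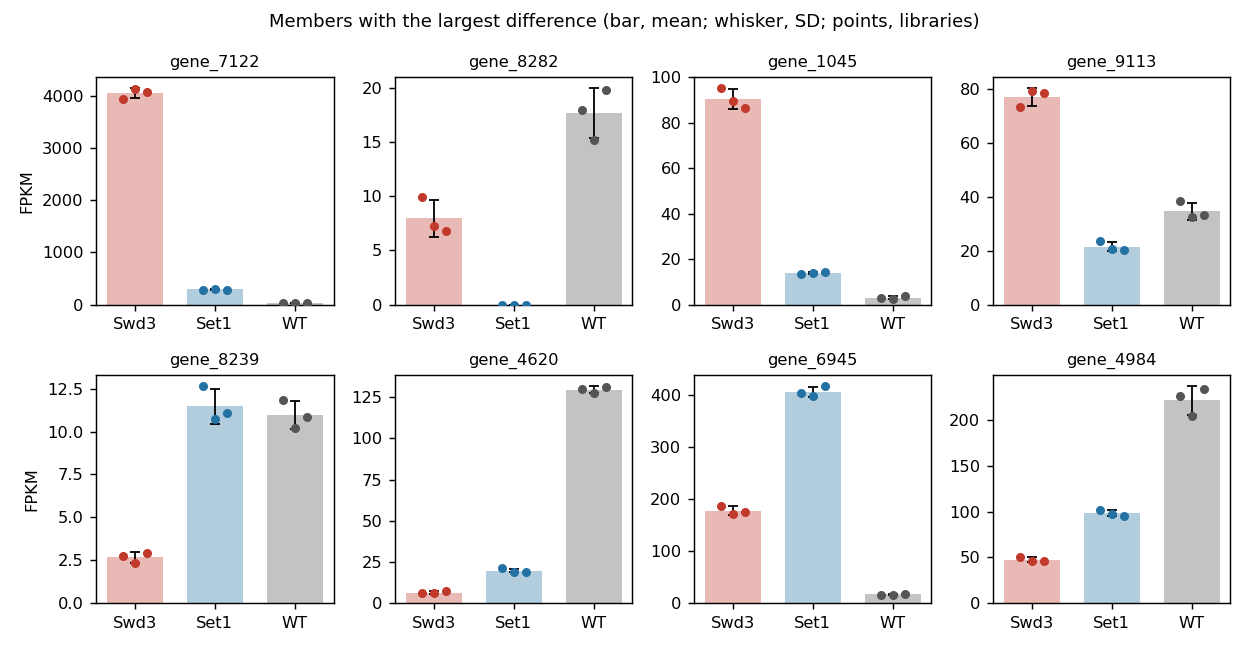
FPKM of the 8 members with the largest differences, 4 higher (top row) and 4 lower (bottom row) in the Swd3 knockout. Bars are means of 3 libraries, whiskers the SD and points the libraries, each panel on its own linear axis from 0. The wild type is the lowest group for gene_7122, gene_1045 and gene_6945 and the highest for gene_8282, gene_4620 and gene_4984.

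Set against WT, the 2 sides of the list took different positions. Both comparisons with WT use the same 3 WT libraries, and the knockout values helped to choose the members, so the counts say where WT lies and are no separate evidence of a difference. In the Swd3 knockout 43 of the 51 higher members were called above WT and 5 below it, and in the Set1 knockout 35 above and 14 below. Among the 81 lower members the Swd3 knockout had 21 called above WT, 21 below it and 39 not called, and the Set1 knockout had 70 above and 8 below. Of all tested rows, 80.7% were called in the Swd3 knockout (38.2% higher, 42.5% lower) and 81.1% in the Set1 knockout (37.8% higher, 43.3% lower). The median log2 difference from WT of the 81 was 0.67 in the Set1 knockout and -0.0014 in the Swd3 knockout. For the 51 it was 1.58 in the Swd3 and 0.97 in the Set1 knockout, where the medians of all tested rows were -0.05 and -0.06.

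Each member was placed in a class by its calls against WT, and because the rule asked for a direct difference, the class shares describe the selection. Both knockouts moved the same way and further without Swd3 in 43 members (32.6%, beside 38.4% of all tested rows). They moved the same way and further without Set1 in 26 members (19.7%, beside 36.1%). The Set1 knockout alone was called in 42 members (31.8%, beside 6.15%) and the Swd3 knockout alone in 5 (3.79%, beside 5.78%). Opposite calls were found in 16 members (12.1%, beside 0.350%), and 0 members were called in neither knockout (beside 13.1%). The number with opposite calls depended on scaling, at 10 by the median of ratios and 19 after quantile normalization.

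**Figure D3:**
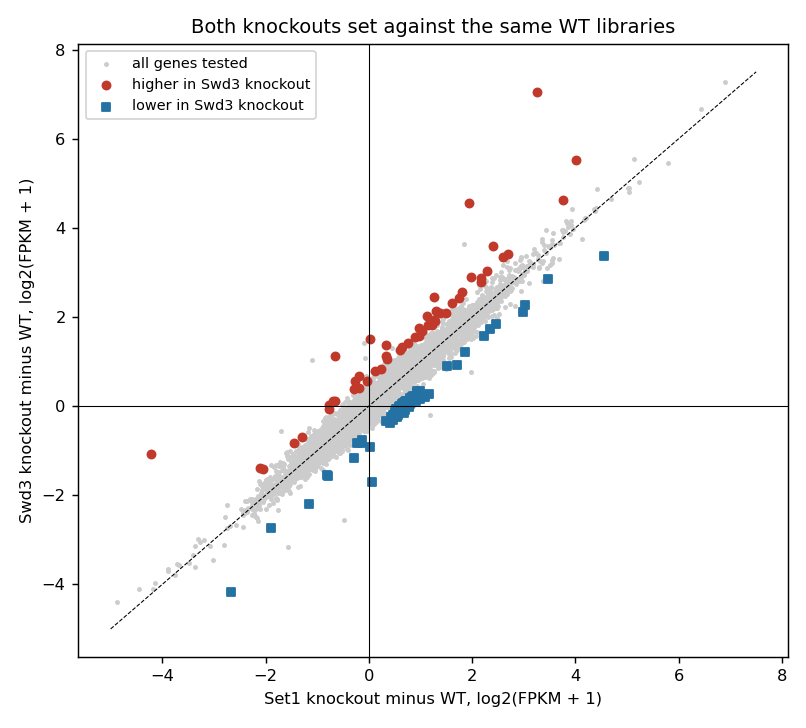
Difference from WT on the log2(FPKM + 1) scale in the Swd3 knockout (vertical) and in the Set1 knockout (horizontal) for all 9153 tested rows in grey, with the 51 higher members as red circles and the 81 lower members as blue squares. The dashed line marks equal differences. Most blue squares lie right of 0 and near 0 on the vertical axis, and most red circles lie in the upper right above the line. Both axes share the WT libraries.

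In a member that moved the same way from WT in both knockouts, the direction of the rule's difference fixes which knockout went further. The share of 38.4% of all tested rows given above for this class counts rises and falls together, and rises alone were not counted. The most frequent pattern among the higher members was a rise in both knockouts, by selection further without Swd3. It was found in 35 of the 51, with a median of 5.12 times the WT mean in the Swd3 knockout (range 1.74 to 136) and 2.75 times in the Set1 knockout (range 1.09 to 38.5). Most of these rows were low in WT, with a median of 5.85 FPKM. After gene_7122 and gene_1045 the next by size was gene_364, which had 67.6, 62.3 and 57.0 FPKM in the Swd3 knockout, 30.04, 23.7 and 27.0 FPKM in the Set1 knockout and 10.3, 10.8 and 10.9 FPKM in WT, with no overlap between any 2 groups. In 34 of the 35 rows all WT values lay below all values of both knockouts, a position that the calls against WT nearly fix.

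The exception was gene_1784, also the one member that the direct comparison did not call (limma adjusted p = 0.303), and it is named here after its values were seen. It had 76.3, 69.7 and 82.1 FPKM in the Swd3 knockout. Its Set1 knockout values were 3.36, 66.7 and 67.5 FPKM, and its WT values 0.0263, 3.52 and 0.0278 FPKM. One library in each of the Set1 knockout and WT groups stood far from the other two. The nearest Swd3 and Set1 knockout values differed by a ratio of 1.03, the smallest of the 131 members with a Set1 knockout value above 0, whose median was 1.49.

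A fall in both knockouts that went further without Swd3 was found in 8 of the lower members. Their medians were 0.303 times the WT mean in the Swd3 knockout and 0.550 times in the Set1 knockout. Gene_4620 and gene_4984 led them, followed by gene_5350, with 8.43, 8.09 and 6.86 FPKM in the Swd3 knockout, 15.7, 13.8 and 15.7 FPKM in the Set1 knockout and 19.9, 18.6 and 17.5 FPKM in WT. For gene_5350 the Set1 knockout lay below WT by a margin that was called (limma adjusted p = 0.0103) but was lost without Set1 knockout replicate 2 or after quantile normalization.

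In 26 members both knockouts had moved the same way from WT, further without Set1. Of these, 21 were raised, at a median of 1.3 times the WT mean in the Swd3 knockout and 2.27 times in the Set1 knockout. After gene_6945 came gene_4959, with 67.2, 61.9 and 60.4 FPKM in the Swd3 knockout, 125, 117 and 115 FPKM in the Set1 knockout and 55.6, 49.9 and 51.9 FPKM in WT. Gene_9376 had 101, 98.8 and 89.4 FPKM in the Swd3 knockout, 191, 171 and 170 FPKM in the Set1 knockout and 22.6, 20.9 and 21.6 FPKM in WT. All 3 groups were apart in both rows, with the Set1 knockout highest and WT lowest.

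The other 5 of the 26 were reduced, and for them WT was the highest group. Beside gene_8282, gene_2942 had 78.5, 74.0 and 75.9 FPKM in the Swd3 knockout, 44.7, 45.9 and 46.2 FPKM in the Set1 knockout and 195, 199 and 203 FPKM in WT. Gene_4127 had 23.2, 23.8 and 20.6 FPKM in the Swd3 knockout, 13.3, 13.3 and 16.1 FPKM in the Set1 knockout and 61.4, 61.6 and 62.2 FPKM in WT. The mean of each was over 4-fold below WT in the Set1 knockout (4.37-fold and 4.34-fold) and under 3-fold below WT in the Swd3 knockout (2.62-fold and 2.74-fold).

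In 16 members the knockouts were called in opposite directions from WT, and all WT values lay between those of both knockouts, a position that the calls and the separation in the rule nearly fix. Of these, 6 were higher and 10 lower in the Swd3 knockout. Among the 6, after gene_9113, gene_9029 had 109, 113 and 112 FPKM in the Swd3 knockout, 62.0, 60.8 and 59.6 FPKM in the Set1 knockout and 69.7, 71.3 and 68.7 FPKM in WT. Gene_7877 had 162, 162 and 170 FPKM in the Swd3 knockout, 91.1, 95.5 and 92.1 FPKM in the Set1 knockout and 116, 113 and 107 FPKM in WT. Both rows stood farther above WT without Swd3 than they stood below it without Set1. Their Set1 knockout calls depended on scaling, since that of gene_9029 was lost by the median of ratios and those of both rows under quantile normalization.

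The 10 of the reverse form had medians of 0.856 times the WT mean in the Swd3 knockout and 1.40 times in the Set1 knockout. Gene_4186 had 129, 122 and 128 FPKM in the Swd3 knockout, 222, 227 and 223 FPKM in the Set1 knockout and 135, 141 and 144 FPKM in WT. Gene_8519 had 215, 193 and 213 FPKM in the Swd3 knockout, 362, 338 and 380 FPKM in the Set1 knockout and 243, 239 and 254 FPKM in WT. Gene_6464 had 484, 470 and 479 FPKM in the Swd3 knockout, 789, 858 and 836 FPKM in the Set1 knockout and 580, 628 and 580 FPKM in WT. The deficit without Swd3 was the smaller part of each difference. For gene_4186 it was a log2 value of -0.15 (limma adjusted p = 0.0059), which was not called when libraries were scaled by the median of ratios and took the other sign after quantile normalization (0.0076).

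In 5 members the Swd3 knockout was called against WT and the Set1 knockout was not. The higher ones were gene_5081 and gene_3679. Gene_5081 had 63.9, 62.0 and 54.4 FPKM in the Swd3 knockout, 22, 20.6 and 20.2 FPKM in the Set1 knockout and 21.8, 18 and 22.1 FPKM in WT, a 2.91-fold mean over WT in the Swd3 knockout. Gene_3679 had 61.5, 63.8 and 66.0 FPKM in the Swd3 knockout, 44.0, 39.9 and 40.1 FPKM in the Set1 knockout and 42.0, 43.1 and 42.6 FPKM in WT. In both rows the Set1 knockout and WT values overlapped. After quantile normalization the Set1 knockout was called above WT for both, with gene_3679 at a log2 value of 0.16 in place of -0.04.

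The lower ones, beside gene_8239, were gene_473 and gene_7083. Gene_473 had 6.74, 6.41 and 6.72 FPKM in the Swd3 knockout, 13.4, 13.8 and 13.5 FPKM in the Set1 knockout and 12.9, 13.4 and 14.0 FPKM in WT, so that its Swd3 knockout mean was 2.05-fold below the Set1 knockout mean. Under quantile normalization its Set1 knockout was called above WT as well (log2 0.19). Gene_7083 was less even, with 12.9, 15.5 and 18 FPKM in the Swd3 knockout, 19.7, 26.6 and 27.9 FPKM in the Set1 knockout and 23.9, 32.3 and 24.9 FPKM in WT. Its direct call (limma adjusted p = 0.0108) was lost without Set1 knockout replicate 2 or 3, at adjusted p of 0.0511 and 0.0621.

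In 42 members the converse held, and the Set1 knockout was called against WT while the Swd3 knockout was not. In 3 of them the Set1 knockout was low. Gene_3474 had 128, 121 and 119 FPKM in the Swd3 knockout, 71.9, 70.4 and 69.3 FPKM in the Set1 knockout and 122, 122 and 119 FPKM in WT. Gene_7642 had 44.2, 38.5 and 35 FPKM in the Swd3 knockout, 24.9, 22.4 and 21.1 FPKM in the Set1 knockout and 37.6, 33.4 and 37.9 FPKM in WT. Gene_6639 had 175, 179 and 171 FPKM in the Swd3 knockout, 108, 103 and 107 FPKM in the Set1 knockout and 183, 181 and 181 FPKM in WT. For these rows the Set1 knockout stood 1.72-fold, 1.59-fold and 1.71-fold below WT. Under quantile normalization the Swd3 knockout was called above WT for gene_3474 and gene_7642, at log2 values of 0.19 and 0.29, and by the median of ratios for gene_7642 (log2 0.17, limma adjusted p = 0.0312).

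In the other 39 of the 42 the Set1 knockout was high, at a median of 1.59 times the WT mean (range 1.43 to 2.18), with the Swd3 knockout at a median of 1.00 times (range 0.875 to 1.21). Gene_5212 had 516, 433 and 461 FPKM in the Swd3 knockout, 794, 841 and 830 FPKM in the Set1 knockout and 439, 451 and 418 FPKM in WT. Gene_1674 had 777, 752 and 759 FPKM in the Swd3 knockout, 1332, 1273 and 1388 FPKM in the Set1 knockout and 772, 761 and 800 FPKM in WT. The Swd3 knockout and WT values overlapped in both rows, and the Set1 knockout values lay above all others. Without Swd3 knockout replicate 2 the Swd3 knockout was called above WT for gene_5212 (log2 0.16, limma adjusted p = 0.0219), as it was with scaling by the median of ratios (log2 0.17, adjusted p = 0.0265).

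Gene_1330, the widest of the 39 by mean difference, was also among the least even. It had 18.5, 15 and 7.53 FPKM in the Swd3 knockout, 27.8, 22.9 and 23.4 FPKM in the Set1 knockout and 13.2, 8.22 and 12.5 FPKM in WT. Its direct call (limma adjusted p = 0.029) did not hold when Swd3 knockout replicate 2 or 3 or any one Set1 knockout library was left out, with adjusted p of 0.0543 to 0.0938, or with robust empirical Bayes (adjusted p = 0.107). Without Swd3 knockout replicate 3 the Swd3 knockout of gene_1330 was called above WT (log2 0.54, limma adjusted p = 0.0097).

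The 58 lower members at 100 to 1000 FPKM in WT, a group set apart after their values were seen, had a median of 466 FPKM in the Swd3 knockout, 739 FPKM in the Set1 knockout and 462 FPKM in WT. Expressed relative to each row's WT mean, their median was 0.989, 0.965 and 1.01 in the Swd3 knockout libraries, 1.55, 1.58 and 1.6 in the Set1 knockout libraries and 0.990, 1.02 and 0.995 in the WT libraries. The quartiles of the 58 spanned 0.903 to 1.1 over the Swd3 knockout libraries and 1.42 to 1.71 over the Set1 knockout libraries. In 54 of the 58 all Set1 knockout values lay above all WT values, and the same number was called higher in the Set1 knockout. Of all 779 gene_ rows in the WT range of these members, 130 to 929 FPKM, 32.2% had all Set1 knockout values above all WT values and 31.6% were called higher. The direct difference that chose the members bears on both counts. In the Swd3 knockout 9 were called higher, 13 lower and 36 neither, and 17.5% of the 779 rows were called neither way.

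Together the 58 rows took 3.84% to 3.98% of the summed FPKM in Swd3 knockout libraries, 5.96% to 6.14% in Set1 knockout libraries and 3.96% to 4.0% in WT libraries. The median direct log2 difference of the 58 was -0.67 as deposited, -0.64 at a common total, -0.69 by the median of ratios and -0.50 after quantile normalization. The last is below the size the rule asked for, and 39 of the 81 lower members still met the rule there. All 81 were called lower in the Swd3 knockout under each of these 3 scalings. The rule chose them by this difference, so these calls are a description. The same holds for the lower share of the 58 in the Swd3 than in the Set1 knockout.

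**Figure D4:**
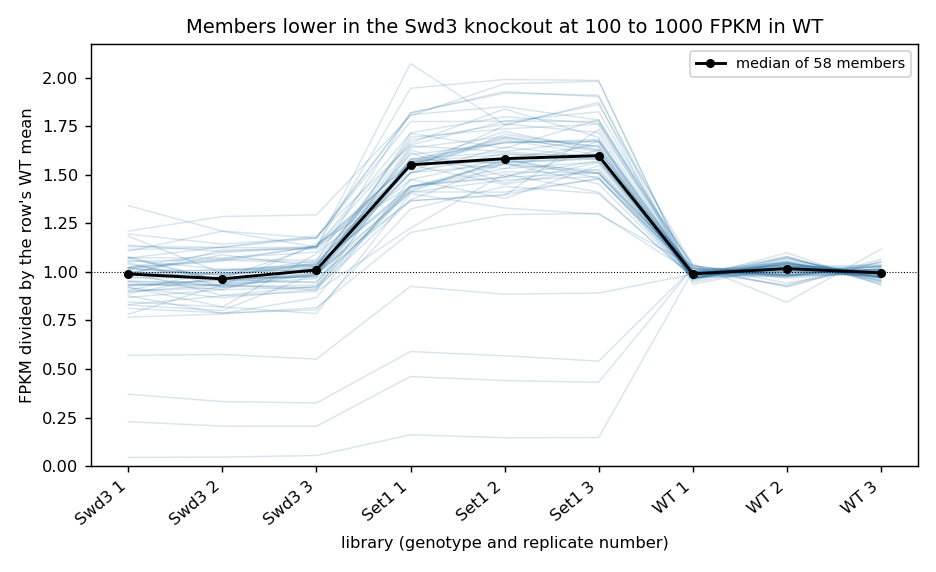
FPKM of each of the 58 lower members at 100 to 1000 FPKM in WT, divided by its WT mean, in the 9 libraries. Each thin line joins the values of one row and the black line joins the medians. The medians stand at 0.965 to 1.01 in Swd3 knockout libraries and at 1.55 to 1.6 in Set1 knockout libraries, and the 4 lines under 1 in the Set1 knockout are rows that fell in both knockouts.

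Members with near row numbers tended to differ in the same direction. Whether the numbers follow the genome is not given in the sources used here. Of the 132 members, 24 lay in 11 runs whose numbers differed by at most 2, and 10 of the 11 runs held members of a single direction. Of the 85 rows numbered next to a higher member, 8 (9.41%) were higher members themselves, while higher members made up 0.572% of all gene_ rows. Next to the lower members 8 of 149 rows (5.37%) were lower members, against 0.908% of all gene_ rows. These shares of all gene_ rows were not matched for WT level, and lower members made up 5.6% of the rows at 100 to 1000 FPKM in WT. Without the longest run described next, the first count became 4 of 79 (5.06%).

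Rows next to members that were not members themselves leaned the same way, in calls from the same contrast and libraries that the rule used. Of 76 such rows tested beside higher members, 17 (22.4%) were called higher and 4 lower in the Swd3 knockout, where 6.93% of tested gene_ rows were called higher. Beside lower members 19 of 139 (13.7%) were called lower and 5 higher, where 6.46% of tested gene_ rows were called lower. The shares were 22.4% to 25% and 12.2% to 16.5% under the 3 other scalings. The shares of all tested gene_ rows include the members and were not matched for WT level. Among non-members 176 of 969 rows at 100 to 1000 FPKM were called lower, against 19 of 1697 at 0.1 to 5 FPKM. Use of strand in the authors' counting is not given, so reads shared by overlapping rows cannot be told apart from like levels of separate genes.

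The one run of more than 2 members was gene_5650 to gene_5653. Gene_5650 had 70.8, 73.0 and 71.0 FPKM in the Swd3 knockout, 41.7, 44.2 and 43.0 FPKM in the Set1 knockout and 6.61, 5.74 and 5.20 FPKM in WT. Gene_5651 had 54.5, 51.7 and 48.2 FPKM in the Swd3 knockout, 32.7, 30.8 and 30.4 FPKM in the Set1 knockout and 9.21, 9.52 and 10.1 FPKM in WT. The next rows kept the same order of groups at other levels.

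Gene_5652 had 86.8, 80.1 and 75 FPKM in the Swd3 knockout, 50.0, 46.0 and 47.7 FPKM in the Set1 knockout and 7.99, 10.7 and 8.52 FPKM in WT. Gene_5653 was the most abundant of the 4, with 427, 414 and 377 FPKM in the Swd3 knockout, 260, 235 and 237 FPKM in the Set1 knockout and 42.2, 35.1 and 40.8 FPKM in WT. The Swd3 knockout exceeded the Set1 knockout by 1.67-fold, 1.64-fold, 1.68-fold and 1.66-fold in number order, while the excess of the Set1 knockout over WT ranged from 3.26-fold to 7.34-fold. The direct difference was therefore nearly the same in all 4 rows although their levels and their distance from WT were not. The rows on either side, gene_5649 (3.72, 3.05 and 1.36 FPKM on average in the Swd3 knockout, the Set1 knockout and WT) and gene_5654 (3.03, 2.85 and 0.181 FPKM), were not called between the knockouts.

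The neighbours of the largest members, looked at after the values were seen, gave 2 further cases. Gene_7121, just outside the rule, precedes gene_7122 by number and rose in both knockouts, further without Swd3, whereas gene_7123 averaged 18.1, 16.1 and 21.1 FPKM in the Swd3 knockout, the Set1 knockout and WT and was not called between the knockouts. Gene_4619, next to gene_4620, was itself a member, with 12.1, 12.4 and 10.2 FPKM in the Swd3 knockout, 22.4, 23.0 and 19.5 FPKM in the Set1 knockout and 80.9, 81.8 and 87.0 FPKM in WT. On its other side gene_4618, at 19.8, 21 and 40.01 FPKM on average in the same groups, was not called between the knockouts (limma adjusted p = 0.619). Past gene_4620, gene_4621 was not called either (limma adjusted p = 0.679). Gene_4622, at 49.6, 64.3 and 88.7 FPKM on average, was called lower in the Swd3 knockout (log2 -0.37, limma adjusted p = 0.00307).

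**Figure D5:**
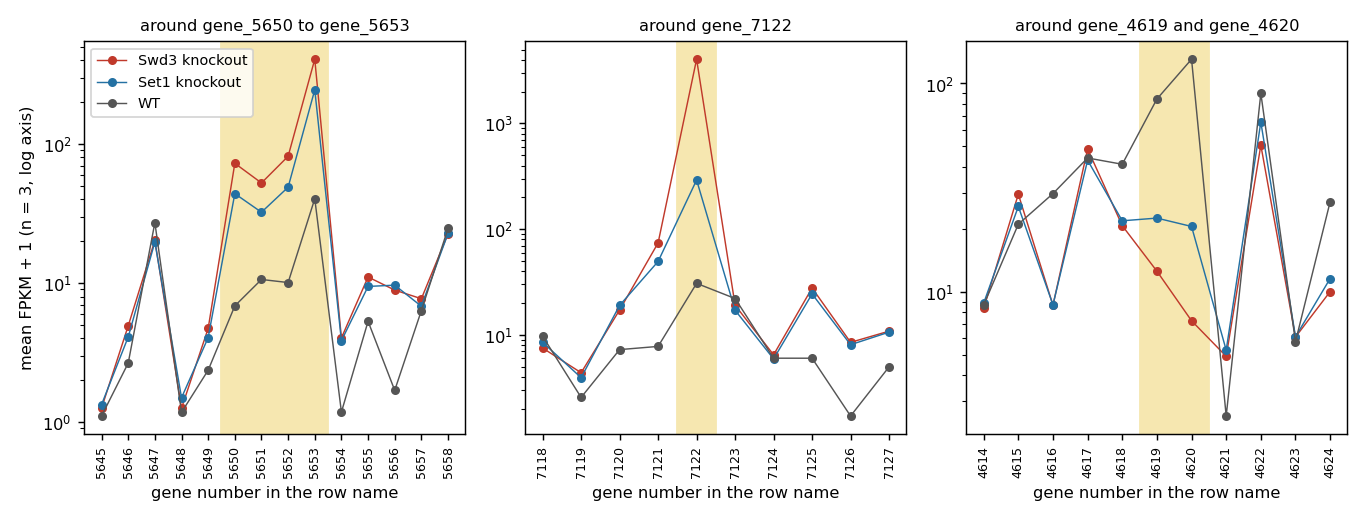
Mean FPKM plus 1 (n = 3, log axis) in the Swd3 knockout, the Set1 knockout and WT for rows in order of the number in their name, around gene_5650 to gene_5653, gene_7122, and gene_4619 with gene_4620. Shaded columns are members. Between the knockouts the curves part at the shaded rows, by 1.64-fold to 1.68-fold in the first panel and 13.9-fold at gene_7122, and by little at most of the rows beside them.

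The spread of the WT values, which had no part in the rule, was no wider among members than among other rows of their level. The median SD of the 3 WT libraries (log2(FPKM + 1) units) was 0.05 for members and 0.05 for all tested gene_ rows at 100 to 1000 FPKM, 0.07 and 0.07 at 20 to 100 FPKM, 0.09 and 0.10 at 5 to 20 FPKM, and 0.14 and 0.16 at 0.1 to 5 FPKM. In their weight in the transcript pool the 2 sides differed, and the direction of each difference between the knockouts follows from the rule. The 81 lower members took 3.95% to 4.09% of the summed FPKM in Swd3 knockout libraries, 6.17% to 6.35% in Set1 knockout libraries and 4.03% to 4.07% in WT libraries. The 51 higher members took 1.23% to 1.24%, 0.415% to 0.419% and 0.357% to 0.364% in the same groups, and without gene_7122 the remaining 50 took 0.649% to 0.675%, 0.376% to 0.379% and 0.353% to 0.360%.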

How the data were processed

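The deposited table holds FPKM per row and library, computed by the authors. FastQC, HISAT2 and StringTie are named, per the submitters' processing notes. No version, genome build, annotation or strand setting is stated in these. The FPKM values showed no steps of whole reads (among 70 low rows of WT libraries 1 and 2, ratios filled 31 bins of 0.1 log2 units, the fullest with 8.57%), so no counting interval was computed. Groups and numbers came from the sample titles.

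Rows with at least 1 FPKM in at least 3 of 9 libraries were tested (9153 of 9869, including all 132 members). One limma fit (limma 3.58.1, R 4.3.3, intensity trend, two-sided) on log2(FPKM + 1) covered all 9 libraries, with Benjamini-Hochberg adjustment over all tested rows. Fold changes on that scale understate changes of low rows; ratios are of mean FPKM. On simulated data for the direct comparison (9153 rows, 200 changed) the fit called 74.6% of 1.5-fold, 92.5% of 2-fold and 97.0% of 4-fold changes. It also called 12 of 8953 unchanged rows. The simulated noise was independent between rows and libraries, so these rates need not hold for the measured libraries.

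Named rows are the 4 largest differences in each direction, up to 3 per direction in each class of calls against WT, runs of at least 3, and rows at the rule's edge. Members and lists were chosen with earlier results of these data known. Alternatives covered pseudocounts, filters, scalings, the fit, a replicate block, member limits and each library left out. The neighbour counts under other scalings and without the run of 4, and the medians by scaling, were added after seeing the data. Replicate numbers were not taken as pairing, since the labels name no shared batch. Deviations correlated above 0.1 in 4 of 9 same-number pairs, with 0.295, 0.0451 and 0.240 between the Swd3 and Set1 knockouts. Pairs of different numbers were not compared, so these values cannot decide whether the libraries were paired.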

Additional observations from a re-analysis of the deposited data

How the results depend on the processing

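The number of members depended on its own limit, with 12 rows at a log2 difference of at least 1 and 364 at 0.4. Under the other settings of the rule 111 (quantile normalization) to 149 (pseudocount 0.1) rows were found, and 130 to 160 with one Swd3 or Set1 knockout library left out. With a pseudocount of 0.5 or 0.1 all 132 members were retained, which arithmetic fixes, since a smaller added value can only widen the log2 difference. With all libraries 1173 rows were called between the knockouts. With one Swd3 or Set1 knockout library left out, the lowest of the 6 totals were 733 (without Swd3 knockout replicate 2) and 758 (without Set1 knockout replicate 3). The highest was 1179 (without Swd3 knockout replicate 1). These are totals of each fit, and their overlap with the 1173 was not counted. Members called between the knockouts numbered 129 to 131 in every fit run, where 733 to 1519 rows were called in all. The rule chose the members by this contrast in these libraries, so that count was nearly fixed and is no measure of stability. In the Set1 knockout against WT 123 to 127 members were called (6367 to 7615 rows in all), and in the Swd3 knockout against WT 86 to 99 (6310 to 7577 in all). Treating the replicate number as a block gave 1369 rows called between the knockouts and 131 members, and 95 members in the Swd3 knockout against WT. The class called in the Set1 but not in the Swd3 knockout held 42 members, and 33 after quantile normalization. The class of opposite calls held 16 members, 10 by the median of ratios, 18 with the replicate block and 19 after quantile normalization. Scalings moved the median log2 difference of all rows by at most 0.08. Among named members 2 values reversed that were called in at least 1 of both settings, both under quantile normalization, and 17 further values changed sign while not called. The 2 were gene_3679 in the Set1 knockout against WT (0.16, adjusted p 0.0264) and gene_4186 in the Swd3 knockout against WT (0.0076, adjusted p 0.872); the cause was not tested. Members in runs of near numbers were 16 with a difference of 1 and 33 with at most 5. Without counts, no depth limit can be given for rows of low FPKM.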

Other observations

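With the limit on the highest group mean lowered to 1 FPKM, the rule found 136 rows, 53 higher and 83 lower in the Swd3 knockout. Rows that met the rule's size, separation and limit of 5 FPKM but not its other bounds were few. Among the rows named NewGene_, 3 did, all higher in the Swd3 knockout. NewGene_137 averaged 9.45 ± 0.170 FPKM in the Swd3 knockout, 5.28 ± 0.271 in the Set1 knockout and 5.52 ± 0.204 in WT (SD, n = 3 each), so that the Set1 knockout was near WT. NewGene_513 averaged 6.32 ± 0.746, 3.55 ± 0.344 and 9.21 ± 0.311 FPKM in the same groups, and NewGene_147 5.22 ± 1.18, 2.92 ± 0.109 and 0.793 ± 0.155 FPKM. At a WT mean of 1000 FPKM or more, 1 row met the remaining conditions. This was gene_2641, at 1192 ± 45.6 FPKM in the Swd3 knockout, 793 ± 9.09 in the Set1 knockout and 1419 ± 21.7 in WT, and it was thus reduced in both knockouts. At that level 0 rows lower in the Swd3 knockout met the remaining conditions. No gene_ row with a WT mean under 0.1 FPKM met the rule's other conditions.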
